A study of Mus musculus with 4 samples.

Results

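A set of 10 genes of the colonic goblet cell were followed across the 4 arrays of a mouse colitis study: Muc2, Fcgbp, Zg16, Tff3, Spink4, Retnlb, Agr2, Creb3l4, Atoh1 and Spdef. Members were taken by gene symbol from the platform annotation, and they had 13 probes among 16639 named genes on 29922 probes. Zg16 was found under its former name 1810010M01Rik. Muc2 had 4 probes and the other 9 genes had 1 each. To count as measured, a gene had to equal or exceed the named probes' median intensity on 1 array or more, which 9 of the 10 members and 10057 genes in all did. Fcgbp was the member that did not.

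A total of 24 female mice formed 4 groups of 6, and colon RNA was taken on day 7. One group received 250 mg/kg trinitrobenzene sulfonic acid (TNBS), a hapten that provokes colitis when given with ethanol, mixed with ginger extract. Another received the same dose of TNBS mixed with zingerone, a phenolic compound of ginger. The next received TNBS alone, and mock mice received only the vehicle that all groups shared, 0.1 ml of 50% ethanol. The mock label gives the strain as BALB/c, and the labels of the other 3 arrays spell it BALC/c. Each group has 1 array of Cy3-labelled amplified RNA. Without replicates no value carries an error and no p-value was computed, and precision is limited by how few arrays there are. Neither the amount of ginger extract or zingerone nor the number of mice behind an array is stated in the labels. In what follows, higher and lower as calls mean a difference of 2-fold or more between a pair of arrays.

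Goblet cells are the mucus-secreting cells of the intestinal epithelium and are abundant in the colon. They package the gel-forming mucin MUC2, which unfolds on release and, together with proteins such as FCGBP and ZG16, forms the layer that keeps bacteria away from the epithelium. Peptides such as trefoil factor 3 are released with it. The basic helix-loop-helix factor ATOH1 commits crypt cells to the secretory lineage, and SPDEF acts after it in goblet cell maturation. In bulk colon RNA, fewer goblet cells and less RNA per goblet cell cannot be told apart.

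Promoter windows of 300 bases around the start site, 250 before it and 50 after it, are shown for members that were at least 2-fold lower on the TNBS array than on the mock array, where the RefSeq-derived table (build GRCm38.p6) holds one. They are printed 5′ to 3′ on the gene's strand. Capitals mark a match, on either strand, to CAGCTG (an E-box of the kind bound by basic helix-loop-helix factors), TGACG (the core of the cyclic AMP response element), TTCNNNNGAA (the STAT6 element) or TATAAA (a core promoter element). Creb3l4 has 3 windows in the table, and the most downstream one, with the most matches, is shown.
Muc2, chr7:141690090-141690389, plus strand: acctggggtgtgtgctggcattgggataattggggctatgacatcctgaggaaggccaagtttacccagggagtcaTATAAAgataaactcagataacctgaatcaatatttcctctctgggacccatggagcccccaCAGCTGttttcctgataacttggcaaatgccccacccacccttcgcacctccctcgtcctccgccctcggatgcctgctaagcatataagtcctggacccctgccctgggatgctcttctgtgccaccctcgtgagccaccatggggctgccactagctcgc
Atoh1, chr6:64728875-64729174, plus strand: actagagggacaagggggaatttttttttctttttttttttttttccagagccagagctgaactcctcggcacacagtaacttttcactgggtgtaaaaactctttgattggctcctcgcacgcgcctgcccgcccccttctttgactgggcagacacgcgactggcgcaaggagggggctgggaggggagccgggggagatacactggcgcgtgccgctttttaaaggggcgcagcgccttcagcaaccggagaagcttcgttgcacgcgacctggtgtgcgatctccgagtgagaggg
Agr2, chr12:35992675-35992974, plus strand: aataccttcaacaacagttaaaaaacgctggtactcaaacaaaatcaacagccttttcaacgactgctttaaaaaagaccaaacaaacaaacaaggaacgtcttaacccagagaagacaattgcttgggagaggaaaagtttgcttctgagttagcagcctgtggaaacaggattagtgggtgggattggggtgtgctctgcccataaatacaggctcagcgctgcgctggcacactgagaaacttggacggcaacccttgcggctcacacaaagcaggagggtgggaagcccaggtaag
Creb3l4, chr3:90242501-90242800, minus strand: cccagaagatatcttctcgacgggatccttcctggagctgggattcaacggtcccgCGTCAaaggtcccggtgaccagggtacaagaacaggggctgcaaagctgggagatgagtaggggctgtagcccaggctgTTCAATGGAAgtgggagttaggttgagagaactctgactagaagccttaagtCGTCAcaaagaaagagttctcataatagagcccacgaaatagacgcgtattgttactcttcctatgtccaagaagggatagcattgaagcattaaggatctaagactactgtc
The Muc2 window holds CAGCTG 112 bases before the start and TATAAA 174 bases before it, while the Atoh1 and Agr2 windows hold none of the 4 strings. The Creb3l4 window shown holds CGTCA, which is TGACG on the other strand, at 194 and 63 bases before the start and a TTCNNNNGAA match at 115 bases before it. Each distance is that of the first base of the match on the gene's strand. Of the 8 windows of 6 members in the table, CAGCTG occurred in 2 (Muc2 and Fcgbp) and TGACG in 4 (2 of Creb3l4 and 1 each of Fcgbp and Spdef), against 16.3% and 20.8% of all 32851 windows. TTCNNNNGAA and TATAAA occurred in 1 of the 8 each, against 6.95% and 13.6% of all windows. The shorter string CANNTG was searched as well and is not marked, since 72.3% of all windows hold it. Likewise GGAT was held by 79.6% of all windows. The string GGAA was held by 96.0%. These matches describe letters in these windows only.

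TNBS colitis was set against mock to see what the model did to the goblet cell genes. All 9 measured members lay below their mock value on the TNBS array, and 6 of them were at least 2-fold lower: Spink4, Creb3l4, Retnlb, Atoh1, Muc2 and Agr2. None was higher. Among all measured genes 4.53% were at least 2-fold lower and 5.08% at least 2-fold higher in this comparison. The members' median difference was -1.49 (log2, TNBS minus mock), beside -0.04 over all measured genes. Of all measured genes 53.7% lay below zero.

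**Figure D1:**
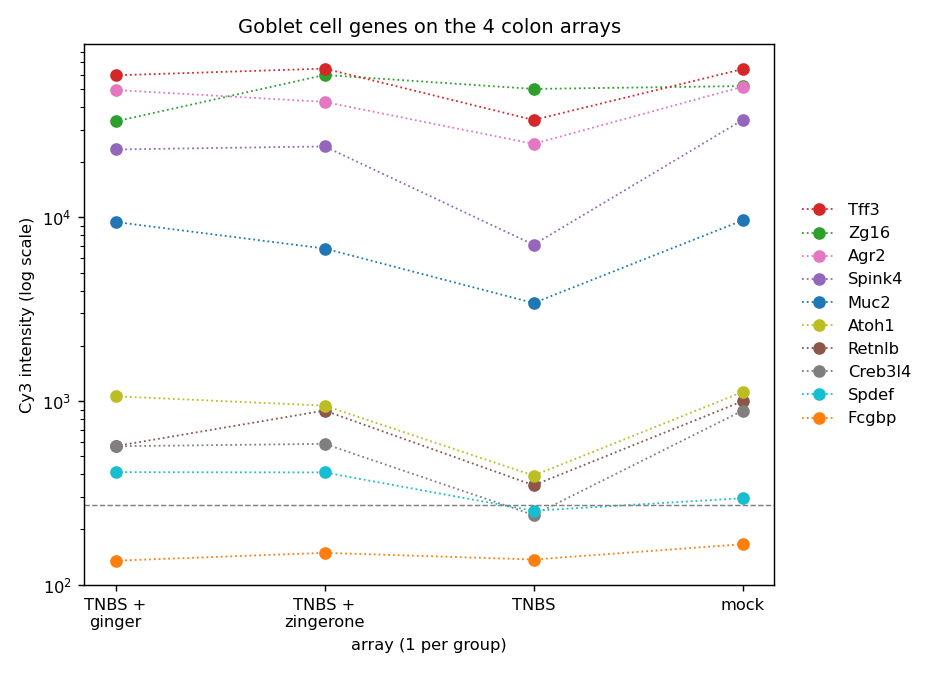
Cy3 intensity (log scale) of each of the 10 goblet cell genes on the ginger, zingerone, TNBS and mock arrays, 1 array per group, with Muc2 drawn by its brightest probe. The dashed line is the median of the named probes on the mock array (270.5). Most genes are lowest on the TNBS array, Zg16 is lowest on the ginger array, and Fcgbp lies under the line on all 4. Probes differ in brightness, so only levels of the same gene can be compared.

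Muc2, the gene of the gel-forming mucin, is reported by its brightest probe, which read 9445.5 with ginger, 6773 with zingerone, 3420 with TNBS alone and 9640 in mock. TNBS was 2.82-fold lower than mock, and the ginger value stood within 0.03 (log2) of the mock value. The 3 other Muc2 probes were dim, between 204.75 and 389.75 on every array. One of them was likewise lowest with TNBS alone, reading 360 with ginger, 368 with zingerone, 254.25 with TNBS alone and 324.25 in mock, all within 2-fold. The other two were not lowest with TNBS alone. The dim probes' TNBS-minus-mock differences were 0.44, -0.35 and -0.17 on the log2 scale, against -1.49 for the brightest. With the mean of all 4 probes in place of the brightest, the Muc2 difference was -0.40 for TNBS minus mock and 0.46 for ginger minus TNBS, and both calls were lost.

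**Figure D2:**
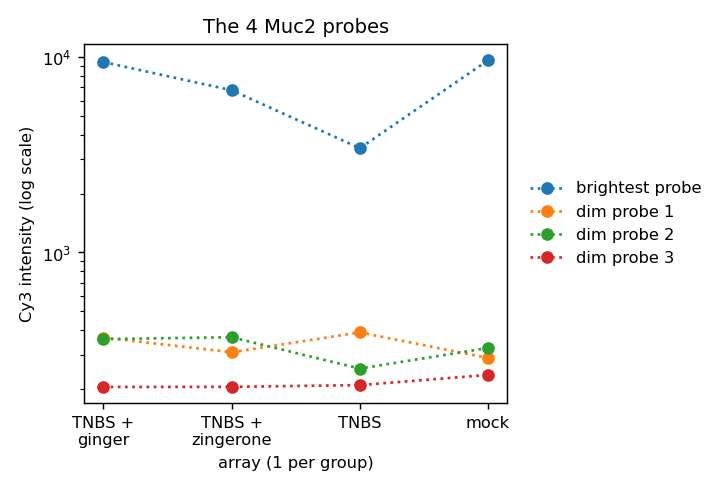
Cy3 intensity (log scale) of the 4 Muc2 probes on the ginger, zingerone, TNBS and mock arrays. The brightest probe is lowest with TNBS alone (3420), and the dim probes stay between 204.75 and 389.75 with no common direction.

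Among the proteins that build the mucus layer with Muc2, Zg16 encodes a lectin-like protein that binds Gram-positive bacteria. Zg16 read 33341 with ginger, 59655.5 with zingerone, 50081 with TNBS alone and 51921.5 in mock. It was thus the measured member closest to its mock value on the TNBS array (-0.05, log2), and the lowest value was the one with ginger. Fcgbp, which encodes a large mucin-like protein that binds to the MUC2 network, read 135.25 with ginger, 149.25 with zingerone, 137.25 with TNBS alone and 166.25 in mock. Its probe lay between the 9.97th and the 25.7th percentile of all probes, so no direction is read from it.

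The secreted peptides included the member farthest below mock. Spink4, a Kazal-type protease inhibitor family member made by goblet cells, read 23447 with ginger, 24360 with zingerone, 7105 with TNBS alone and 33939.5 in mock. It was 4.78-fold lower with TNBS than in mock, and 0.288% of all measured genes had a lower difference. Retnlb encodes RELMβ, a cysteine-rich protein released by goblet cells that acts on bacteria. It read 569 with ginger, 888 with zingerone, 348 with TNBS alone and 998.5 in mock, 2.87-fold lower with TNBS than in mock. The ginger and zingerone values of both genes lay between those of TNBS and mock. Tff3, the trefoil peptide of mucosal repair, read 59390 with ginger, 64634 with zingerone, 33939.5 with TNBS alone and 64236.5 in mock. TNBS was 1.89-fold lower than mock, short of the threshold.

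Tff3 with zingerone was the highest value of its array. All 4 arrays share nearly the same set of values, so a reading near the top is mainly a rank: the Tff3 value with TNBS and the Spink4 value in mock are the same number, 33939.5. Tff3, Zg16, Agr2 and Spink4 lay at or above the 98.6th percentile of probes on every array. Their folds may be limited by the end of the scale at 64634, which was not tested.

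Of the genes that act in the endoplasmic reticulum, Agr2 encodes a disulfide isomerase family protein needed for MUC2 production in mice. Agr2 read 49395 with ginger, 42578 with zingerone, 25147 with TNBS alone and 51505 in mock, 2.05-fold lower with TNBS than in mock. Creb3l4 encodes a membrane-bound transcription factor of the CREB3 family. It read 567.5 with ginger, 585.5 with zingerone, 239.75 with TNBS alone and 888 in mock, 3.70-fold lower with TNBS. Its TNBS value lay under the median of the named probes on that array (269). A fold from such a dim value is uncertain and may be understated. Both genes were lowest with TNBS alone and highest in mock.

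The lineage factor Atoh1 read 1062 with ginger, 945 with zingerone, 393 with TNBS alone and 1120 in mock, 2.85-fold lower with TNBS than in mock. Spdef read 410.5 with ginger, 409 with zingerone, 253 with TNBS alone and 296 in mock. Spdef differed from the other measured members in that its ginger and zingerone values both lay above mock, each by 0.47 (log2), while TNBS stood only 0.23 below mock. The TNBS and mock values of Spdef were close to the median of the named probes (269 and 270.5). Differences between such dim values are uncertain and may be understated.

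**Figure D3:**
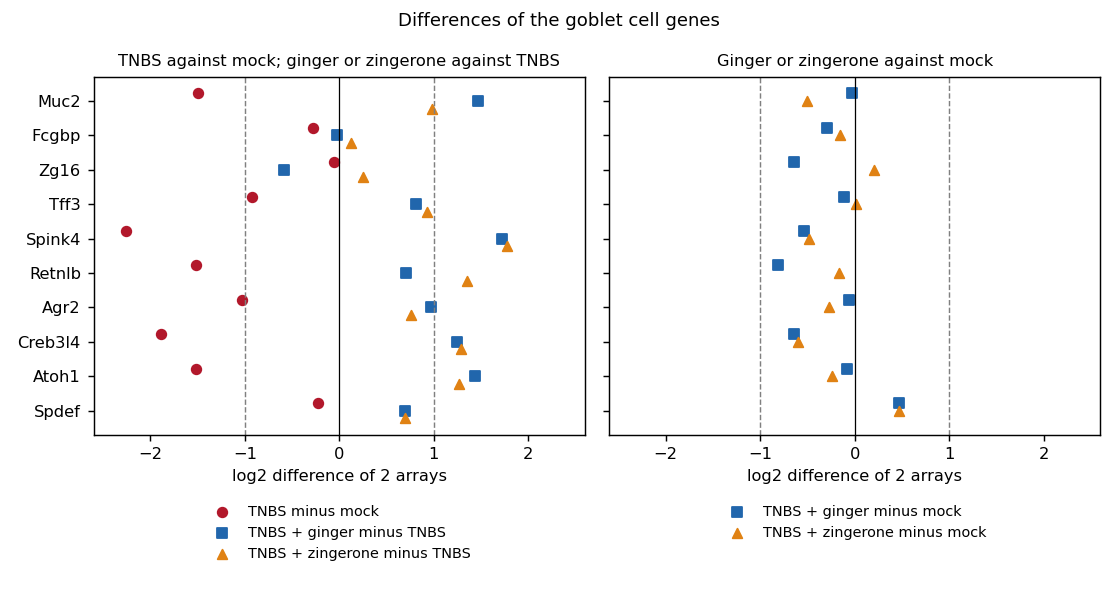
Log2 differences of 2 arrays for the 10 genes. The left panel holds TNBS minus mock (circles), ginger minus TNBS (squares) and zingerone minus TNBS (triangles), and the right panel ginger and zingerone minus mock. Dashed lines mark 2-fold. In the left panel 6 circles lie past 2-fold below zero, and in the right panel no symbol passes 2-fold. Fcgbp is drawn but was below the measured threshold.

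The array of TNBS with ginger extract was next set against that of TNBS alone. Of the 9 measured members 4 were at least 2-fold higher with ginger: Spink4 (3.30-fold), Muc2 (2.76-fold), Atoh1 (2.70-fold) and Creb3l4 (2.37-fold). None was lower by 2-fold. Among all measured genes 1.37% were at least 2-fold higher in this comparison and 2.48% lower. Agr2 (1.96-fold), Tff3 (1.75-fold), Retnlb (1.63-fold) and Spdef (1.62-fold) were above TNBS by less than 2-fold. Zg16 was the exception, with a difference of -0.59 (log2, ginger minus TNBS), and 6.38% of measured genes lay lower. The members' median difference was 0.97, beside 0.02 over all measured genes.

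The array of TNBS with zingerone was set against the same TNBS array, so the ginger and zingerone comparisons share it. All 9 measured members lay above TNBS, and 4 were at least 2-fold higher: Spink4 (3.43-fold), Retnlb (2.55-fold), Creb3l4 (2.44-fold) and Atoh1 (2.40-fold). Among all measured genes 4.58% were at least 2-fold higher and 2.96% lower. Muc2, at 1.98-fold, was just short of the threshold. Tff3 (1.90-fold), Agr2 (1.69-fold), Spdef (1.62-fold) and Zg16 (1.19-fold) differed by less. The members' median difference was 0.99, beside -0.02 over all measured genes. Of all measured genes 48.4% lay above zero in this comparison.

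**Figure D4:**
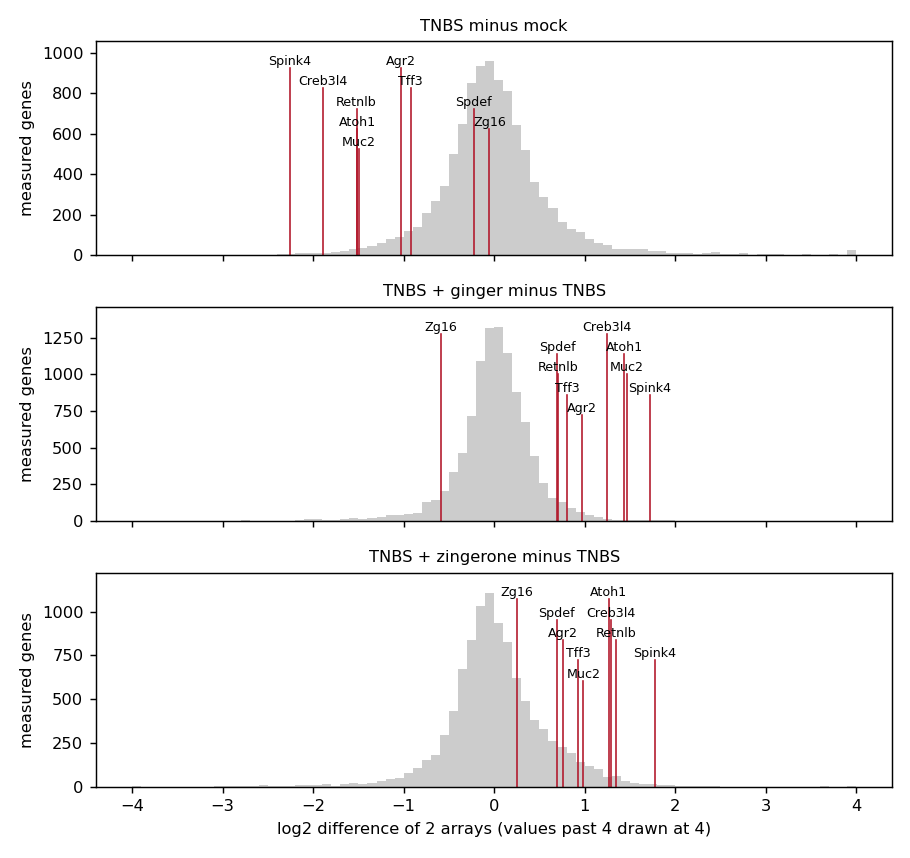
Histograms of the log2 difference of all 10057 measured genes for TNBS minus mock, ginger minus TNBS and zingerone minus TNBS, with the 9 measured goblet cell genes as red lines (values past 4 are drawn at 4). All members lie below zero in the first panel, and above zero in the other 2 except Zg16 with ginger (-0.59).

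Set against mock, no measured member was 2-fold apart with ginger or with zingerone. Of all measured genes 1.62% were at least 2-fold higher and 1.09% lower with ginger than in mock, and 1.53% higher and 1.06% lower with zingerone, so a count of 0 among 9 genes is near the background. With ginger, 8 of the 9 lay below mock (median -0.11), the lowest being Retnlb (-0.81), Creb3l4 (-0.65), Zg16 (-0.64) and Spink4 (-0.53). With zingerone, 6 of the 9 lay below mock (median -0.25), the lowest being Creb3l4 (-0.60), Muc2 (-0.51) and Spink4 (-0.48). Of all measured genes 48.9% lay below mock with ginger and 48.6% with zingerone, each with a median of 0.01. The 6 of 9 with zingerone is thus near the background. These comparisons share the mock array with each other and with the TNBS comparison.

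Between the 2 additions themselves no measured member was 2-fold apart, beside 0.358% of measured genes that were at least 2-fold higher with ginger and 0.746% that were lower. Zg16 (-0.84) and Retnlb (-0.64) were lower and Muc2 (0.48) higher with ginger than with zingerone on the log2 scale. With 1 array each and unknown amounts, these differences have no error.

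Other goblet cell genes were also low with TNBS, though their list was chosen with earlier results of these data known and is not independent support. From a list of 30, 24 were on the array and 20 measured, and 17 of these lay below mock with TNBS, 10 of them by at least 2-fold, with none 2-fold higher (median -1.03). Of all measured genes 4.53% were at least 2-fold lower and 5.08% higher, shares that also apply to the lists that follow. Clca1, which encodes a secreted metalloprotease of the mucus, read 1459 with ginger, 1344 with zingerone, 605 with TNBS alone and 2994 in mock. The serine protease gene Tpsg1 was 4.55-fold lower with TNBS than in mock, Rep15 3.92-fold and the kallikrein Klk1 3.60-fold. Of the 20, 7 were at least 2-fold higher with ginger than with TNBS alone (median 0.75) and 8 with zingerone (median 0.89). Among all measured genes these shares were 1.37% with ginger and 4.58% with zingerone. Against mock, 2 of the 20 stayed at least 2-fold lower with ginger (median -0.32) and 2 with zingerone (median -0.14), with none higher. Of all measured genes 1.09% and 1.06% were that far below mock. Tpsg1 was 3.43-fold higher with ginger and 3.36-fold with zingerone. The Clca1 value is the mean of 2 unlike probes annotated as Clca3, which RefSeq lists as a former name of Clca1. The gene behind them could not be tested. They differed between TNBS and mock by -3.73 and -0.89.

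Of the other mucin genes 9 of 12 were on the array and 4 measured. Muc13, a transmembrane mucin of the epithelial surface, read 2626 with ginger, 4303 with zingerone, 1458 with TNBS alone and 5415 in mock, 3.71-fold lower with TNBS. Muc3 (-0.81) and Muc1 (-0.72), both transmembrane mucins, stood below mock by less than 2-fold, and the gastric and airway mucin gene Muc5ac differed by 0.22. Muc13 was 2.06-fold lower with ginger than in mock, and -0.33 (log2) with zingerone.

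Genes of mucin O-glycosylation, the sugar chains that make up most of the mass of MUC2, went both ways. Of 22 measured from a list of 31, 5 were at least 2-fold lower and 1 higher with TNBS than in mock (median -0.44). Galnt6, an enzyme that starts such chains, read 565.5 with ginger, 1181 with zingerone, 252 with TNBS alone and 974 in mock. Slc35a1, the transporter of CMP-sialic acid into the Golgi, was 3.29-fold lower with TNBS, and the fucosyltransferase gene Fut4 2.23-fold. The other lower genes, named after their values were seen, were Galnt7 (-1.08) and B3gnt7 (-1.04). The sialyltransferase gene St3gal4 was the one 2-fold higher (2.95-fold). Of the 22, Galnt6 was the 1 gene at least 2-fold higher with ginger than with TNBS alone. With zingerone Galnt6, Slc35a1, Fut4 and B3gnt7 were higher and St3gal4 lower. Among all measured genes 1.37% were at least 2-fold higher than with TNBS alone with ginger. With zingerone 4.58% were higher and 2.96% lower.

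Protein folding and secretion genes had a median of 0.03 for TNBS minus mock, beside -1.49 for the goblet cell members. None of 25 measured genes was 2-fold apart. Of all measured genes 5.08% were higher and 4.53% lower, so this count is near the background. Ern2, an endoplasmic reticulum stress sensor of mucus-secreting epithelia, came nearest with -0.99. Ddit3, a stress-induced transcription factor, differed by 0.92, the co-chaperone Dnajb11 by -0.87 and the translocon subunit Sec61a1 by -0.82. Against TNBS alone, 1 of the 25 was at least 2-fold higher with ginger, Ern2 (2.13-fold), and 1 with zingerone, Dnajb11 (2.22-fold). None was lower. Of all measured genes 1.37% and 4.58% were higher, so no response of the list is read from these counts. Against mock, 1 gene was higher and 1 lower with zingerone, beside 1.53% and 1.06% of all measured genes.

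Among 15 measured regulators of the secretory and intestinal lineages, Notch1 was at least 2-fold higher with TNBS than in mock and Cdx2 and Foxa3 lower (median -0.27). Of all measured genes 5.08% were higher and 4.53% lower, so no response of the list as a whole is read from these counts. Notch1, the receptor whose signal holds back secretory fate through Hes1, read 450 with ginger, 441 with zingerone, 1009 with TNBS alone and 342.5 in mock. Foxa3, a forkhead factor found in goblet cells, read 1470 with ginger, 1391.5 with zingerone, 722 with TNBS alone and 1584 in mock. Cdx2, an intestinal identity factor, read 487 with ginger, 987.5 with zingerone, 257 with TNBS alone and 564.5 in mock. Its relative Cdx1 differed by -0.82 between TNBS and mock. Hes1 itself, named after its values were seen, differed by -0.25.

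Cytokines and receptors known to act on goblet cells had 10 measured genes, 2 of them at least 2-fold higher with TNBS than in mock. The alarmin gene Il33 was 5.19-fold higher. Il6, the other, read 211.75 with ginger, 183 with zingerone, 754.75 with TNBS alone and 96.1 in mock. No fold is given for it, since the mock value is under the lower quartile of its array (165). Tnf differed by 0.75 and the receptor gene Il13ra1 by 0.40. The classical inducers Il4, Il13 and Il22, named after their values were seen, did not reach the measured threshold on any array.

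**Figure D5:**
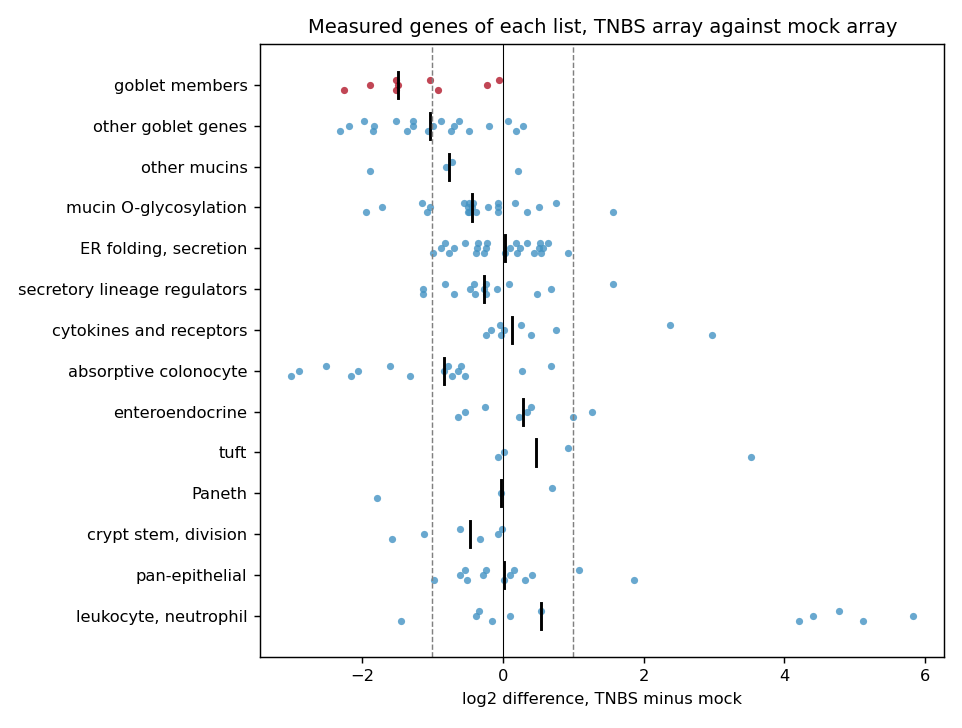
Log2 difference between the TNBS and mock arrays for each measured gene of the goblet cell members (red) and of 13 further lists (blue). Black bars are medians and dashed lines mark 2-fold. The medians are -1.49 for the members, -1.03 for other goblet cell genes, -0.84 for absorptive colonocyte genes and 0.02 for pan-epithelial genes.

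Genes of other epithelial cells were set beside the members. The 13 pan-epithelial genes had a median of 0.02 (log2, TNBS minus mock), with none at least 2-fold lower and 2 higher: Cldn4 (3.63-fold) and Krt18 (2.12-fold). Cldn3 (-0.98) and Lgals4 (-0.61) were the lowest. Absorptive colonocyte genes were low as well, with 7 of 15 at least 2-fold lower (median -0.84), among them Car4 (8.04-fold), Guca2a (7.45-fold), Slc26a3 (5.69-fold) and Fabp2 (4.48-fold). Low values with TNBS were thus shared by goblet and absorptive genes. The rise over TNBS alone was shared too. Of the 15 absorptive genes 5 were at least 2-fold higher with ginger (median 0.89) and 8 with zingerone (median 1.25). Of all measured genes 1.37% were higher with ginger and 4.58% with zingerone. Enteroendocrine genes, from the other large secretory lineage, had none of 8 lower and 2 higher, Tph1 (2.41-fold) and Gcg, which lay at the threshold, with a median of 0.28. Insl5 (-0.64) and Chga (-0.53) stood below mock.

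Tuft cell genes had 4 measured of 8, of which Alox5ap, also a leukocyte gene, was 11.6-fold higher, while Avil (0.92), Pou2f3 (-0.06) and Il25 (0.01) were within 2-fold. Of 3 measured Paneth cell genes, Pla2g2a, a phospholipase of antibacterial defence, was 3.44-fold lower. Mmp7 (0.70) and Lyz1 (-0.02) were within 2-fold. Crypt stem and division genes had 2 of 6 lower, Mcm5 (2.97-fold) and Smoc2 (2.17-fold), with Ascl2 at -0.61 and Mki67 at -0.32.

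Of the absorptive colonocyte genes 15 of the 16 on the array were measured, and of the small intestinal genes 5 of 6. Because levels of different probes cannot be compared, these markers do not separate colon from small intestine, and the colon label was taken as given. Some inflammatory cell markers were high on the TNBS array, where most goblet cell genes were low. Of 11 measured leukocyte and neutrophil genes 5 were at least 2-fold higher with TNBS than in mock and 1 was lower, while 4 in all lay below mock. The fifth higher gene, Retnlg, at 18.6-fold, and the lower one, the plasma cell gene Jchain, at 2.74-fold lower, were picked out after seeing their values. Summed over the list, intensity was 105480 with ginger, 84835 with zingerone, 178425 with TNBS alone and 13987 in mock. S100a9, S100a8 and Cd14 were 57.0-fold, 34.9-fold and 21.2-fold higher with TNBS than in mock, and Mmp8 read 4446 with TNBS and 161.75 in mock, a value under the lower quartile of its array. With ginger 3 of the 11 were at least 2-fold lower than with TNBS alone and none was higher, and with zingerone 3 were lower and 1 higher. Of all measured genes 2.48% were lower and 1.37% higher with ginger, and 2.96% lower and 4.58% higher with zingerone. The S100a9 and S100a8 differences were -0.20 and -0.25 for ginger minus TNBS and -0.53 and -0.60 for zingerone minus TNBS (log2). Both genes make up most of the sum on the ginger, zingerone and TNBS arrays. They stayed high with ginger and with zingerone, and 5 of the 11 genes were at least 2-fold above mock with either addition. Of all measured genes 1.62% were that far above mock with ginger and 1.53% with zingerone. Smooth muscle and stromal genes had 1 of 10 higher, Vim (5.61-fold), with Pdgfra at 0.97, Des at 0.77 and Myh11 at -0.71. The part of these cells in the goblet cell values was not tested.

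The genes whose 4 values lay nearest to the members' mean profile were found over all measured genes outside the members, as the Euclidean distance between log2 values centred on each gene's own mean. Over these 4 arrays the nearest were Tmprss2 (0.06), Kcnk3 (0.10), Klk1b11 (0.11), Clcn2 (0.12), Mdh1 (0.13), Klk1b8 (0.13), Foxa3 (0.14), Tspan3 (0.14), Mdp1 (0.14) and Atp5k (0.15). Tmprss2, an epithelial transmembrane serine protease, read 2212 with ginger, 2464 with zingerone, 1149 with TNBS alone and 2774 in mock. Kallikrein genes are a family of near-identical copies, so Klk1b11, Klk1b8 and Klk1 may share signal. Among the members, Tff3 (0.21) and Agr2 (0.25) lay nearest to their mean and Zg16 (1.13) and Spink4 (0.78) farthest. By distance among all measured genes Tff3 had rank 37, Muc2 472, Spink4 2450 and Zg16 7195. Genes outside the members thus lay nearer to this profile than any member did.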

How the data were processed

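Per the labels' protocols, total RNA of colon was amplified and carried Cy3 label. Values deposited by the authors are intensity readings on a linear scale, 1 for each probe on each array. The submitters' processing notes name limma, with no version or role, and the scanner, background and scaling steps are not stated in the labels. Sorted intensities differ by at most 1.84% between the 4 arrays, as after quantile normalization. The lowest is 74.2, as where background is left in, so that dim probes may have understated folds. Array medians were 238 to 238.25.

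Of 29922 probes, 21020 have 1 symbol in the platform annotation and 8902 have none. Symbols were updated through RefSeq synonyms (GRCm38.p6): 17556 were current, 3412 updated and 52 kept. Clca symbols were read as former names, Clca3 as today's Clca1, with no accession to test this. The log2 of each intensity was used without a pseudocount, and probes of 1 gene were averaged, except Muc2, given by its brightest probe. A single array per group leaves no degrees of freedom, so nothing was tested. Counts at 2-fold are set beside the share of all measured genes.

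Named genes are the members, up to 4 measured genes per list with the largest TNBS-minus-mock difference, and the 10 nearest profiles; any other gene was named after its values were seen. Members and lists were chosen with earlier results of these data known. The calling step was run on simulated data with planted changes far past 2-fold and an assumed small noise. That run checks the code only and does not bear on calls near 2-fold. Alternatives were another scaling, background, floor, filter, probe rule or fold threshold. Python 3.11.15, numpy 2.4.6 and pandas 2.3.3 were used.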

Additional observations from a re-analysis of the deposited data

How the results depend on the processing

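No paired analysis was possible because each group has 1 array, and no array could be left out. The direction of the members' median difference held in each of the 6 comparisons under all 9 alternatives, with ranges of -1.53 to -1.03 for TNBS minus mock, 0.81 to 1.14 for ginger minus TNBS and 0.93 to 1.14 for zingerone minus TNBS. Not all alternatives could move it. The fold threshold does not enter a median, and the brightest-probe rule leaves the members' values unchanged. Quantile normalization and equal medians act on arrays that already share nearly the same values. For ginger minus mock the median was -0.32 with the filter at the 75th percentile, which drops Spdef, in place of -0.11. At a threshold of 1.5-fold, 8 members were higher and 1 lower with ginger than with TNBS. Of the 10057 measured genes 610 were higher and 644 lower. With zingerone 8 members were higher than with TNBS, beside 1321 of all measured genes. At that threshold 3 members were lower with ginger than in mock, 1 with zingerone than in mock, and 2 with ginger than with zingerone. Of all measured genes 523, 514 and 488 were lower in these comparisons. Members at least 2-fold lower with TNBS than in mock numbered 5 with the mean of all Muc2 probes, 7 at 1.5-fold and 6 under the other settings. At 1.5-fold 1231 of all measured genes were lower with TNBS than in mock. Subtracting the 5th percentile of each array took Spdef past 2-fold above TNBS with ginger (1.14 on the log2 scale) and zingerone (1.14), and Muc2 with zingerone (1.01). That setting called 855 of 9931 genes higher and 842 lower for TNBS minus mock, against 511 and 456 as reported. For ginger minus TNBS it called 328 and 416, against 138 and 249, and for zingerone minus TNBS 965 and 534, against 461 and 298.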
